A study of Mus musculus with 30 samples.

Results

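Gene expression in the quadriceps femoris was compared between mice with 1 functional copy of Ctcf and wild-type mice. The comparison used the 6 quadriceps libraries of a series of 30, chosen by their labels as quadriceps muscle: 3 from wild-type (WT) mice and 3 from Ctcf+/- mice, and it covered every gene in the count table. All 6 came from adult C57BL/6 animals, and the labels call the 2 genotypes control and Ctcf haploinsufficiency. The labels used here give no treatment, no sex, no age in weeks and no description of the mutant allele. Per the series' design text, the 3 WT and 3 Ctcf+/- mice also gave brain, kidney, liver and spleen. Of 48709 genes in the table, 22464 had 0 counts in all 6 libraries and 16064 passed the filter on low counts and were tested.

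CTCF binds DNA through zinc fingers and, with cohesin, sets the boundaries of chromatin loops. The quadriceps of a mouse is mostly made of fast glycolytic fibres, with slower oxidative fibres in its deeper part. Slow and fast fibres use different genes for myosin, troponin and calcium pumping, and slow fibres hold more mitochondria. Between the fibres lie fibroblasts and their collagen, vessels, nerves, resident leukocytes and adipocytes, so a whole-muscle library mixes the RNA of all of them.

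The libraries held 86.1 to 103.7 M counts, and 3 counts in a library corresponded to 0.0288 to 0.0345 CPM, the count scaled to a common library total. Levels are given below in CPM after TMM scaling, in the order of replicates 1, 2 and 3. The tissue label matched the data: the summed level of 8 muscle fibre genes, among them Acta1 and Ckm, was 165302 to 174073 CPM in WT and 151565 to 183146 CPM in Ctcf+/- libraries. The 4 Y-linked genes examined had 0 counts in every library, and Xist lay between 62.4 and 113.9 CPM. Libraries stood apart in 3 respects before any comparison. WT replicate 2 held 479.8 CPM (of total counts, without TMM scaling) from genes whose level in kidney is at least 100 times that in muscle, against 169.0 to 206.0 CPM in the other 5 libraries. That library also held 87.4 CPM of Ppargc1a, a regulator of mitochondrial genes, against 16 to 18.6 CPM in the others. The Ctcf+/- libraries held more adipocyte transcripts than the WT libraries, as given below. No pair of replicates agreed within sampling noise. The design text counts mice, so p-values measure the spread between single animals, with no repeat library of any of them.

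Ctcf itself was measured first. Its level was 29.3, 32.0 and 34.3 CPM in WT and 23.5, 19.3 and 21.4 CPM in Ctcf+/- libraries. Every Ctcf+/- library lay below every WT library, and the Ctcf+/- mean was 67.2% of the WT mean. The log2 fold change was -0.57 ± 0.11 (SE, n = 3 per genotype), with an edgeR quasi-likelihood adjusted p of 0.250, above the threshold of 0.05 used throughout. DESeq2 called it lower. Exons of Ctcf overlap those of Agrp and Gm5914, and the counting ignored strand.

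Of the 16064 genes tested with edgeR, 4 passed at an adjusted p under 0.05, which is 0.0249% of them. Carmil2 and Kcnk3 rose in Ctcf+/- muscle, and Cd151 and 5830444B04Rik fell, 2 genes or 0.0125% in each direction. Without adjustment 1036 genes (6.45%) had a p under 0.05, of which 589 were higher and 447 lower. For 1958 genes (12.2%) the WT and Ctcf+/- libraries did not overlap, 949 with higher and 1009 with lower levels in Ctcf+/-. The median log2 fold change over all genes tested was -0.01, and 48.4% of the values were above 0. DESeq2 called 159 genes (0.990%), with 102 higher (0.635%) and 57 lower (0.355%), and limma-voom called 2.

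Carmil2 encodes an actin regulator that acts at the membrane and is known best from T cells. It was at 0.0768, 0.126 and 0.0438 CPM in WT libraries, or 8, 13 and 4 counts. In Ctcf+/- libraries it was at 16.2, 16.1 and 17.5 CPM. The Ctcf+/- mean was 202.0 times the WT mean, with a log2 fold change of 7.61 ± 0.25 (SE, n = 3 per genotype) and an edgeR adjusted p of 2.82e-05. Carmil2 lies on chromosome 8 at 105686274 to 105698187 of GRCm38, on the plus strand. Its start is 3352 bases past the end of Ctcf, at 105636568 to 105682922 on the same strand. It shares exon sequence with Acd, whose own level was 4.30, 4.5 and 4.34 CPM in WT and 3.57, 4.02 and 4.08 CPM in Ctcf+/-. Within 1000 kb of Ctcf 55 genes were tested, Carmil2 was the single edgeR call among them, and their median log2 fold change was -0.11.

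Kcnk3 encodes TASK-1, a potassium channel with 2 pore domains that carries a background current and is sensitive to pH. Its level was 0.422, 0.291 and 0.318 CPM in WT and 2.05, 2.35 and 2.01 CPM in Ctcf+/- libraries. The Ctcf+/- mean was 6.22 times the WT mean, and the 3 values of each genotype lay close together. The log2 fold change was 2.63 ± 0.23 (SE), with an edgeR adjusted p of 0.0262. The gene lies on chromosome 5 at 30588170 to 30625271, plus strand, and overlaps Gm9899. Among 24 sarcolemmal ion channels and pumps it was the only one called. Of the other 23, Abcc8, the SUR1 subunit of ATP-sensitive potassium channels, was at 3.07, 4.27 and 4.14 CPM in WT and 5.59, 6.09 and 4.94 CPM in Ctcf+/-. The list's median was 0.03, with 3 higher and 1 lower at an unadjusted p under 0.05 (3.67% and 2.78% of all genes).

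Cd151 encodes a tetraspanin that binds laminin receptors of the integrin family. It was at 77.7, 77.4 and 74.6 CPM in WT and 43.9, 45.4 and 42.4 CPM in Ctcf+/- libraries. The replicates of each genotype differed from each other by far less than the genotypes did, and the Ctcf+/- mean was 57.3% of the WT mean. The log2 fold change was -0.80 ± 0.08 (SE), with an edgeR adjusted p of 0.0334. Cd151 lies on chromosome 7 at 141467392 to 141471473, plus strand, and overlaps Gm10575. Of 25 laminin receptors, tetraspanins and dystrophin complex genes it was the only call, and the list's median was 0.03. Sgcb, a sarcoglycan of the dystrophin complex, was at 125.9, 130.9 and 140.7 CPM in WT and 165.1, 156.8 and 167.2 CPM in Ctcf+/-, and Sgca, its partner, at 186.2, 179.5 and 188.7 CPM against 145.9, 165.2 and 171.4 CPM.

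The fourth call, 5830444B04Rik, is a processed transcript without a described protein. It was at 0.729, 0.872 and 0.877 CPM in WT, or 76, 90 and 80 counts, and at 0.108, 0.115 and 0.107 CPM in Ctcf+/-, or 11, 10 and 10 counts. The log2 fold change was -2.89 ± 0.29 (SE), with an edgeR adjusted p of 0.0334. It lies on chromosome 4 at 155398763 to 155421704, minus strand, and its exons overlap Cfap74.

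Carmil2 stayed called when any of the 6 libraries was left out, with adjusted p from 4.60e-05 to 0.00154. Each of the other 3 calls was lost whichever library was left out. Log2 fold changes then ran from 2.51 to 2.81 for Kcnk3, from -0.83 to -0.77 for Cd151 and from -2.97 to -2.85 for 5830444B04Rik. Their edgeR adjusted p ran from 0.0765 to 0.169, from 0.103 to 0.360 and from 0.138 to 0.321.

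**Figure D1:**
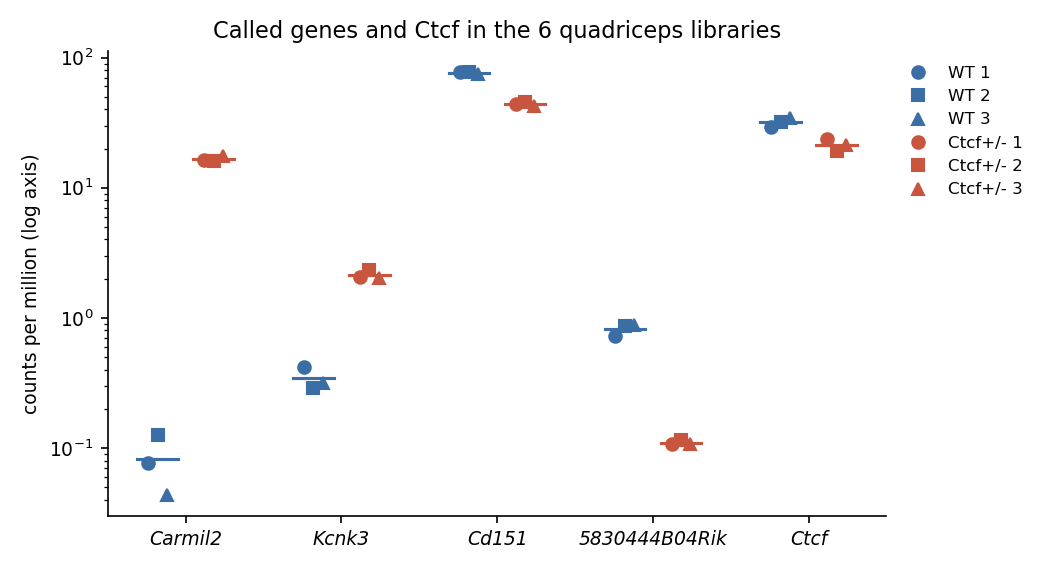
Level in CPM on a log axis of the 4 genes called by edgeR and of Ctcf, with 1 symbol per library and a bar at the mean of each genotype. The 3 WT and 3 Ctcf+/- symbols of each gene form separate groups, widest apart in Carmil2 (0.0822 against 16.6 CPM) and closest in Ctcf (31.9 against 21.4 CPM).

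Beyond these 4, the DESeq2 calls were ordered by fold change, for genes with a mean of at least 1 CPM and groups that did not overlap. All 159 had groups that did not overlap, and none but the 4 passed in edgeR. On simulated counts of 16064 genes DESeq2 recovered 68 of 98 genes changed by 1 log2 unit and 86 of 97 changed by 2. There edgeR recovered 52 and 86 of them, and limma-voom 51 and 83. DESeq2 made 53 false calls, against 10 for edgeR and 7 for limma-voom. DESeq2 calls are thus less certain, while edgeR missed more of the genes changed by 1 log2 unit. The simulated counts used dispersions estimated by edgeR, so the simulation is not neutral between the tools. At the lower end Nmrk2, a nicotinamide riboside kinase that makes an NAD precursor in muscle, was at 107.9, 133.3 and 101.2 CPM in WT and 49.1, 32.8 and 34.5 CPM in Ctcf+/-. Its Ctcf+/- mean was 34.0% of the WT mean, and its edgeR adjusted p was 0.0758. S100a1, a calcium sensor of striated muscle, was at 151.4, 109.2 and 88.5 CPM in WT and 42.4, 43.1 and 45.8 CPM in Ctcf+/-, with an edgeR adjusted p of 0.116. These are abundant muscle transcripts, and the highest Ctcf+/- library lay well under the lowest WT library in both. Car2, a carbonic anhydrase, was at 8.51, 9.48 and 8.69 CPM against 4.18, 4.60 and 4.95 CPM. Hoxc11, a positional transcription factor of the posterior body, was at 7.99, 6.87 and 9.36 CPM against 4.18, 3.71 and 5.15 CPM. Ass1, Gstm7, Mpped2, Accs, Nrtn and C1qtnf4 also stood at this end, with means of 2.33 to 11.7 CPM in WT and 1.28 to 7.07 CPM in Ctcf+/-.

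At the upper end stood Ucp1, Cidea, Carmil2, Kcnk3, Tmem45b, Prkar2b, Hcar1, Arxes2, Lgals12, Adrb3, Cfd and Plin1. Several of these are known as genes of fat cells. Prkar2b, a regulatory subunit of protein kinase A, was at 1.43, 1.76 and 0.614 CPM in WT and 11.5, 5.05 and 6.76 CPM in Ctcf+/-. Adrb3, the beta-3 adrenergic receptor of adipocytes, was at 1.19, 0.920 and 0.625 CPM against 7.93, 1.92 and 4.12 CPM. Hcar1, the lactate receptor of adipocytes, was at 0.461, 0.494 and 0.132 CPM against 3.21, 0.956 and 1.96 CPM. Ctcf+/- replicate 1 was the highest and replicate 2 the lowest of the Ctcf+/- libraries in these 3 genes.

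The first principal component of the 500 most variable genes held 53.7% of their variance, and genotype accounted for 87.0% of the spread along it. WT libraries scored -14.72, -31.07 and -14.26 and Ctcf+/- libraries 27.63, 22.92 and 9.50, so the genotypes fell on opposite sides of 0. These shares describe 6 libraries and carry no test. Much of the component came from transcripts that are scarce in muscle. Of the 500 genes, 383 had a mean under 1 CPM and 220 had a level at least 100 times that of muscle in another tissue of the series, and those 220 held 75.6% of its squared loading. The 10 genes with the most negative loading were all kidney genes, among them Kap, Umod, Slc34a1, Aadat, Lrp2, Miox, Mep1a, Keg1 and Slc12a1. On the positive side Carmil2 and Ucp1 led, followed by Rpph1, Sp9, Cidea, Kcnk3, Hcar2, Tmem45b, Prkar2b and Lgals12. The 8 kidney tubule markers held 13.5% of the squared loading and 10 of the adipocyte markers 3.88%.

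The genotypes also separated when genes at least 100 times higher in brain, kidney, liver or spleen were set aside. Transcripts of fat and of organs outside the series stayed in. Scgb1a1, known from airway, had the most negative loading (-0.217), and Ucp1, known from brown fat, had 0.206. Without the genes higher in those 4 tissues, the first component of the 500 most variable remaining genes held 35.6% of the variance, 91.8% of it along genotype. WT scores were then -17.9, -10.06 and -9.97 and Ctcf+/- scores 11.9, 8.34 and 17.69. WT replicate 2 no longer lay farthest out. Of the muscle programs in the gene lists, slow-fibre contractile genes held the most of that component. Their 11 genes, 2.2% of the 500, all had negative loading and held 3.5% of the squared loading. Adipocyte markers held 9.28% through 10 genes (2.0% of the 500), all of positive loading. Sarcolemmal ion channels and pumps held 0.982% through 2 genes (0.4%), Kcnk3 and Kcnk13. Interferon response genes held 0.353% through 1 gene (0.2%), and excitation and calcium handling genes 0.207% through 1 (0.2%). The remaining programs held less than their share of the 500 genes. Fatty acid genes held 0.385% through 4 genes (0.8%), circadian clock genes 0.592% through 6 (1.2%), and interstitial matrix genes 0.00745% through 2 (0.4%). Over all genes tested, genotype took 94.8% of a first component that held 32.8% of the variance.

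**Figure D2:**
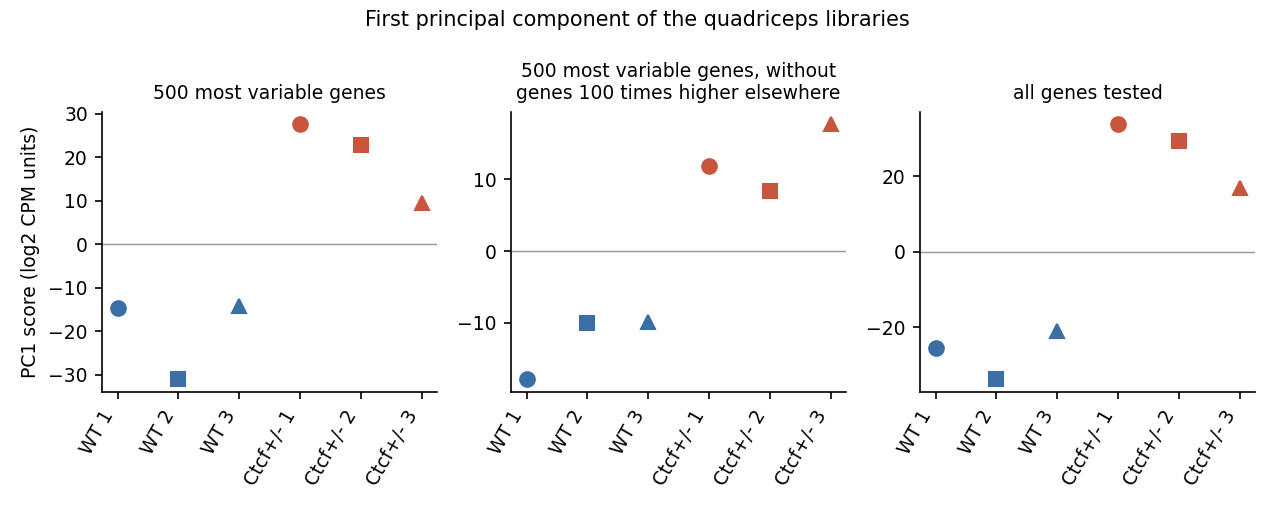
Score on the first principal component for each library, from the 500 most variable genes, from 500 genes chosen after leaving out those with 100 times the muscle level elsewhere, and from all genes tested. WT libraries lie below 0 and Ctcf+/- libraries above 0 in each panel, and WT replicate 2 is the lowest in the first panel (-31.07).

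Adipocyte markers were higher in Ctcf+/- muscle. All 14 tested members had a positive log2 fold change with a median of 2.02, against -0.01 over all genes. Of the 14, 13 had an unadjusted p under 0.05, where 3.67% of all genes did in that direction, and 11 had groups that did not overlap (5.91% of all genes). DESeq2 called 8 of them and edgeR none. Their summed level was 284.9 to 443.3 CPM in WT and 640.6 to 1058 CPM in Ctcf+/- libraries. In bulk tissue more cells of a type and more RNA per cell cannot be told apart.

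Cfd, the secreted adipokine adipsin, was at 50, 32.1 and 17.1 CPM in WT and 236.8, 89.9 and 178.3 CPM in Ctcf+/- libraries. Plin1, which coats the lipid droplet of adipocytes, was at 3.01, 3.11 and 1.38 CPM against 16.6, 6.99 and 10.8 CPM. Adipoq, the hormone adiponectin, was at 7.90, 7.06 and 2.36 CPM against 36.5, 12.8 and 22.8 CPM. WT replicate 3 was the lowest library in all 3 genes and Ctcf+/- replicate 2 the lowest of its group. The enzymes of fat synthesis ordered the libraries differently. Fasn, fatty acid synthase, was at 17.8, 29.1 and 22.5 CPM in WT and 73.6, 53.3 and 112.6 CPM in Ctcf+/-. Scd1, a desaturase, was at 35.9, 66.2 and 43.5 CPM against 159.6, 107.5 and 200.7 CPM. Thrsp, a regulator of fat synthesis, was at 17.7, 19.7 and 20.8 CPM against 34.2, 40.8 and 57.3 CPM. Ctcf+/- replicate 3 was the highest library for these 3. Fabp4, the fatty acid carrier of adipocytes and capillaries, overlapped between genotypes, at 271.6, 224.8 and 159.5 CPM against 369.6, 253.8 and 307.0 CPM. Lep, the hormone leptin, was under 1.5 CPM in every library.

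Markers of brown or beige fat ordered the Ctcf+/- libraries in their own ways. Ucp1, the uncoupling protein of brown fat, had 0, 2 and 0 counts in WT and 407, 324 and 30 counts in Ctcf+/- libraries. Cidea, a lipid droplet protein abundant in brown fat, was at 1.60, 0.775 and 0.307 CPM in WT and 5.09, 7.52 and 5.47 CPM in Ctcf+/-. Ucp1 was thus about as high in Ctcf+/- replicate 2 (3.73 CPM) as in replicate 1 (4.01 CPM) and far lower in replicate 3 (0.321 CPM). In Kcnk3, which fat also expresses, the same 3 libraries spanned 2.01 to 2.35 CPM. The part of adipocyte RNA in the other results of this comparison was not tested. With each library left out in turn, the median of the adipocyte list stayed between 1.65 and 2.24, and at least 11 of 14 members kept an unadjusted p under 0.05.

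Kidney transcripts pointed the other way and were at or near 0 counts in Ctcf+/- replicates 1 and 2. All 8 tubule markers had a negative log2 fold change with a median of -3.94, 7 had an unadjusted p under 0.05 (2.78% of all genes in that direction) and 7 had groups that did not overlap (6.28%). Kap, an androgen-controlled protein of the proximal tubule, was at 5.83, 46.2 and 5.38 CPM in WT and 0, 0 and 2.64 CPM in Ctcf+/- libraries. Umod, the urinary protein uromodulin, was at 1.19, 8.89 and 1.47 CPM against 0, 0.0115 and 0.438 CPM. Aqp2, a water channel of the collecting duct, was at 0.230, 1.65 and 0.219 CPM against 0.0986, 0.104 and 0.107 CPM. WT replicate 2 was the highest library for all 8, and Ctcf+/- replicates 1 and 2 had 0 counts for 6 of them. Their summed level was 11.4 to 79.7 CPM in WT and 0.0986 to 6.64 CPM in Ctcf+/-. In kidney itself Kap averaged 14384 CPM. Without WT replicate 2 the median was -2.45, and 4 of the 8 had an unadjusted p under 0.05. Without Ctcf+/- replicate 3 it was -10.59, and with limma-voom on all 6 libraries -6.09. Fitted values of genes at or near 0 counts depend on how the counts are smoothed.

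Kidney was not the only tissue whose transcripts appeared. Among genes at least 100 times higher elsewhere, 227 kidney genes were tested and had a median of -0.61. The 174 liver genes had a median of -0.12, the 521 brain genes 0.09 and the 383 spleen genes 0.31. DESeq2 called 51 of these 1305 genes, where it called 0.990% of all genes, and edgeR none. Single hepatocyte transcripts were highest in WT replicate 1. Alb, serum albumin, was at 9.66, 0.639 and 0.734 CPM in WT and 0.0296, 1.46 and 0.182 CPM in Ctcf+/-, and Apoa1, an apolipoprotein, at 3.12, 0.0484 and 0.121 CPM against 0.00986, 0.196 and 0.0962 CPM. The hepatocyte list as a whole summed to 25.8, 4.74 and 2.88 CPM in WT and 23.3, 11 and 10.7 CPM in Ctcf+/-, and its 7 tested members had a median of -2.49, with 2 lower and 1 higher at an unadjusted p under 0.05. Without WT replicate 1 the median was 0.17 and Apoa1 had a log2 fold change of 0.24. The higher member was Cyp2e1, a cytochrome P450 also made by adipocytes, at 5.49, 3.13 and 1.26 CPM in WT and 22.8, 7.83 and 9.90 CPM in Ctcf+/- libraries.

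**Figure D3:**
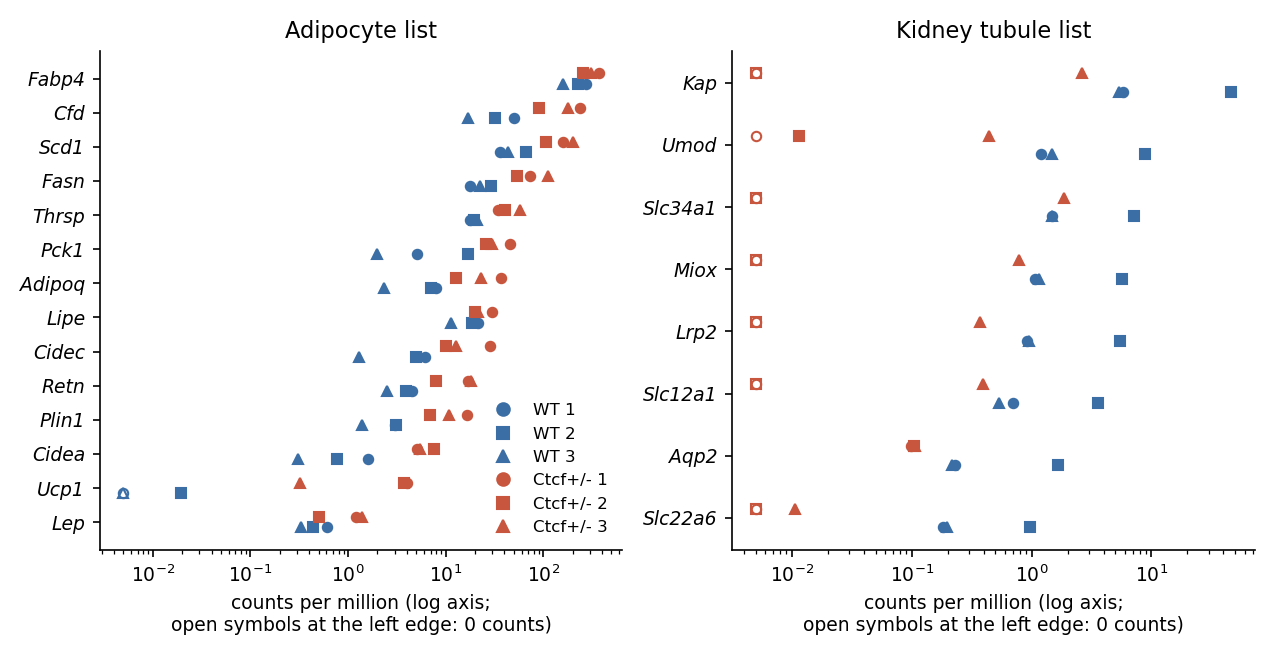
Level in CPM on a log axis of the 14 adipocyte markers and the 8 kidney tubule markers in each library; open symbols mark 0 counts. Adipocyte genes lie to the right in Ctcf+/- libraries except for overlaps such as Fabp4, and kidney genes lie farthest right in WT replicate 2 (Kap at 46.2 CPM) and mostly at 0 in Ctcf+/- replicates 1 and 2.

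Slow-fibre contractile genes had lower levels in Ctcf+/- muscle without clear separation of the libraries. Of 15 genes 14 had a negative log2 fold change, and the median was -1.21. At an unadjusted p under 0.05 there were 7, all lower (2.78% of all genes). None was called by edgeR or DESeq2, and for none did the groups fail to overlap (12.2% of all genes). With the replicate number as a block edgeR did call most of them, as given below. Tnnt1, slow troponin T, was at 335.0, 433.6 and 159.1 CPM in WT and 97.0, 206.7 and 64.1 CPM in Ctcf+/- libraries. Tnnc1, the troponin C of slow and cardiac muscle, was at 217.0, 249.0 and 95.6 CPM against 63.5, 124.1 and 35.6 CPM. Myl2, the slow regulatory light chain, was at 380.8, 380.5 and 124.6 CPM against 98.7, 205.4 and 71.7 CPM. In each of these WT replicate 3 lay below Ctcf+/- replicate 2. Mybpc1, slow myosin-binding protein C, was nearly level, at 1513, 1260 and 813.1 CPM against 1458, 1532 and 727.3 CPM.

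Single libraries moved this result. Without WT replicate 3, 13 of the 15 had an unadjusted p under 0.05 and the median was -1.50. Without Ctcf+/- replicate 2 there were 10, with a median of -1.54. Without WT replicate 1, WT replicate 2, Ctcf+/- replicate 1 or Ctcf+/- replicate 3 there were 0, with medians of -0.92, -0.87, -1.05 and -0.80. The list's summed level was 2309 to 5563 CPM in WT and 1418 to 3724 CPM in Ctcf+/-.

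The adult myosin heavy chains were compared on a scale per exon length. Myh7 also belongs to the slow-fibre list, so its share is not a result independent of that list. Myh4, the chain of the fastest fibres, made up 89.6% ± 2.84 (SD, n = 3) of the length-scaled signal of the 4 chains in WT and 92.1% ± 3.13 in Ctcf+/-. Myh7, the slow chain, made up 0.476% ± 0.206 in WT and 0.179% ± 0.117 in Ctcf+/-, with 0.454%, 0.692% and 0.281% in the WT libraries and 0.179%, 0.296% and 0.0620% in the Ctcf+/- libraries. Myh2 made up 3.05% ± 1.53 against 1.90% ± 1.01 and Myh1 6.84% ± 1.23 against 5.83% ± 2.03. A 2-sided exact permutation test gave p = 0.20 for Myh7, 0.400 for Myh2, 0.600 for Myh1 and 0.400 for Myh4, and 0.533 to 0.600 after Benjamini-Hochberg adjustment over the 4. With 3 against 3 libraries such a test cannot give less than 0.1. The fast-fibre contractile list had a median of -0.02 over 17 genes, of which 8 were positive and none had an unadjusted p under 0.05. Pvalb, the calcium buffer of fast fibres, was at 18023, 18275 and 17533 CPM in WT and 16780, 23048 and 24983 CPM in Ctcf+/- libraries.

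**Figure D4:**
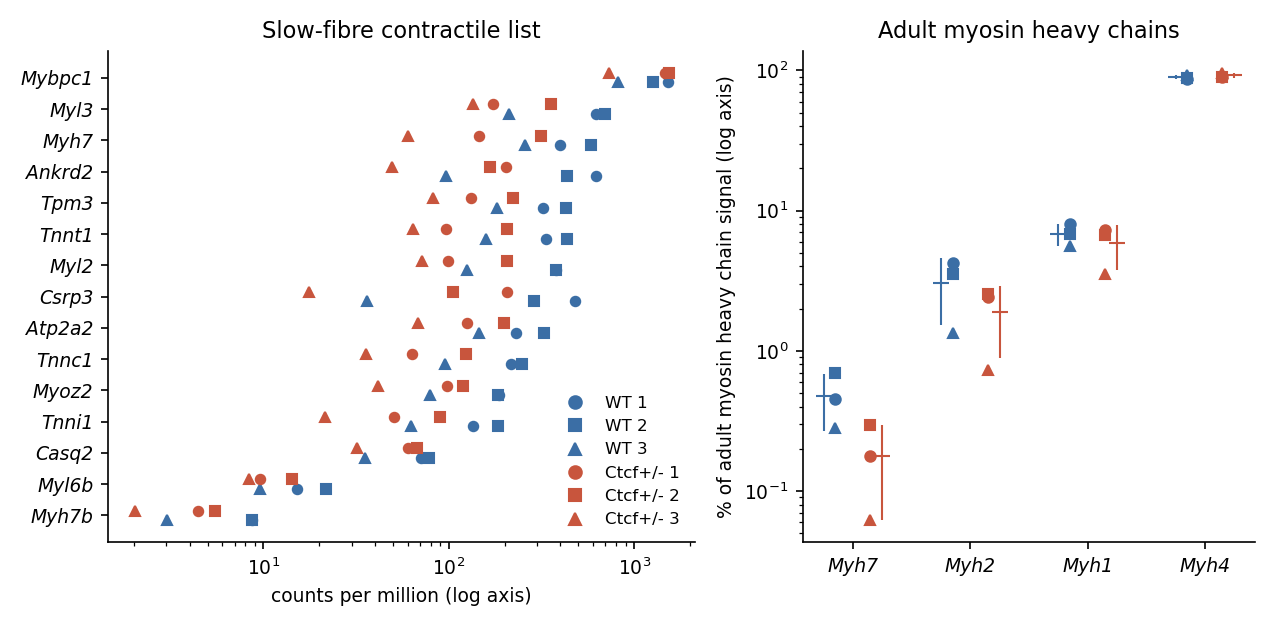
Left, level in CPM on a log axis of the 15 slow-fibre contractile genes in each library. Right, share of each adult myosin heavy chain in the length-scaled signal of the 4 chains, on a log axis, with the mean and SD of each genotype. Ctcf+/- symbols lie to the left of most WT symbols but overlap with WT replicate 3, and Myh4 takes about 90% in every library (87.2% to 95.7%).

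Lists of oxidative metabolism had medians from -0.25 to -0.03, and edgeR and DESeq2 called none of their genes. Of 36 genes of fatty acid uptake and oxidation 34 had a negative log2 fold change, with a median of -0.25. At an unadjusted p under 0.05 there was 1 (6.45% of all genes). That gene was Etfb, which passes electrons from fatty acid oxidation to the respiratory chain, at 49.3, 45.9 and 30.5 CPM in WT and 31.9, 31.9 and 31.8 CPM in Ctcf+/-. Fabp3, the fatty acid carrier of muscle, ranged from 380.4 to 1193 CPM in WT and from 333.0 to 579.6 CPM in Ctcf+/-. For 77 nuclear genes of the respiratory chain the median was -0.11, 3 values were positive, and none had an unadjusted p under 0.05. Leaving out WT replicate 1 moved that median to -0.01, with 38 of 77 positive, and moved the fatty acid median to -0.07. Leaving out WT replicate 3 moved the respiratory chain median to -0.22, with 15 lower at an unadjusted p under 0.05, and the fatty acid median to -0.36, with 8 lower. Without Ctcf+/- replicate 1 the fatty acid median was -0.38, with 6 lower.

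Of 26 genes of pyruvate dehydrogenase and the TCA cycle 3 had an unadjusted p under 0.05, all lower (2.78% of all genes). The median was -0.09. Idh2, the mitochondrial NADP-linked isocitrate dehydrogenase, was at 345.8, 387.9 and 218.8 CPM in WT and 178.5, 242.2 and 166.8 CPM in Ctcf+/-. Mpc1, a pyruvate carrier of the inner membrane, was at 80.3, 84.3 and 83.2 CPM against 68.5, 67.9 and 74.2 CPM. The 13 protein genes of the mitochondrial genome had a median of -0.10 and took 7.48% to 10.4% of all counts.

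Among 24 regulators and products of the oxidative program 3 had an unadjusted p under 0.05, all lower (2.78% of all genes). The list median was -0.03. Mb, the oxygen store myoglobin, was at 4383, 3582 and 2355 CPM in WT and 2287, 2783 and 1539 CPM in Ctcf+/-. Ppargc1a had groups that did not overlap, but WT replicates 1 and 3, at 18.6 and 18.2 CPM, were close to the highest Ctcf+/- library at 17.7 CPM. Glycolysis and glycogen genes had a median of -0.07 over 32. Pgk1, a glycolytic enzyme, was at 902.7, 886.9 and 956.4 CPM against 1014, 1119 and 1189 CPM. Ldhb, the lactate dehydrogenase subunit of oxidative fibres, was at 327.1, 259.8 and 133.2 CPM against 126.1, 172.4 and 78.8 CPM. Slc2a4, the insulin-responsive glucose transporter GLUT4, was at 490.6, 489.1 and 483.2 CPM against 405.5, 434.7 and 425.4 CPM.

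Interstitial collagens and matrix genes leaned upward. Of 38 genes 34 had a positive log2 fold change, with a median of 0.34. At an unadjusted p under 0.05 there were 5, all higher (3.67% of all genes). None was called by edgeR or DESeq2. Col3a1, a fibrillar collagen of loose connective tissue, was at 131.2, 203.1 and 109.3 CPM in WT and 261.2, 377.4 and 164.5 CPM in Ctcf+/- libraries. Col5a1, which nucleates collagen fibrils, was at 17.8, 28.2 and 17.5 CPM against 33.7, 50.4 and 22.8 CPM. In both, WT replicate 2 lay above Ctcf+/- replicate 3. Timp2, an inhibitor of matrix metalloproteinases, was the one gene of the list whose groups did not overlap, at 52.3, 61.1 and 63.5 CPM against 66.0, 80.9 and 68.4 CPM. Over all genes 5.91% were higher without overlap, a share that 1 of 38 does not exceed. The count at an unadjusted p under 0.05 was 16 without WT replicate 2 and 19 without Ctcf+/- replicate 3. It was 1 without WT replicate 1, WT replicate 3 or Ctcf+/- replicate 1 and 0 without Ctcf+/- replicate 2, and the median ran from 0.19 to 0.65. Markers of fibro-adipogenic progenitors, the stromal cells that make this matrix, had a median of 0.41 over 9 genes, and their summed level was 522.4 to 730.6 CPM in WT and 585.8 to 995.4 CPM in Ctcf+/-. Dpt, a matrix protein of that list, was at 36.3, 37.1 and 25.5 CPM against 54.4, 66.2 and 38.8 CPM. The part of these cells in the matrix values was not tested. Basement membrane genes had a median of 0.19 over 16. Of these, 1 was higher and 1 lower at an unadjusted p under 0.05 (3.67% and 2.78% of all genes).

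Interferon response genes also leaned upward. Of 25 genes 24 had a positive log2 fold change and the median was 0.47. At an unadjusted p under 0.05 there were 9 genes (3.67% of all genes were higher at that p), and 11 had groups that did not overlap (5.91% of all genes), all higher. DESeq2 called Ifit3 and edgeR none. Ifit3, an RNA-binding antiviral protein, was at 3.64, 3.84 and 3.33 CPM in WT and 6.54, 6.42 and 5.25 CPM in Ctcf+/-. Gbp7, a guanylate-binding protein, was at 8.18, 8.09 and 9.06 CPM against 13.2, 10.3 and 14.0 CPM. Ifi27l2a was at 6.15, 4.88 and 1.51 CPM against 16.2, 13.8 and 10 CPM. Levels were low throughout, with a summed level of 102.4 to 143.1 CPM in WT and 161.0 to 188.0 CPM in Ctcf+/-. Stat2, a transcription factor of the pathway, overlapped between genotypes, at 5.70 to 7.63 CPM in WT and 6.39 to 6.69 CPM in Ctcf+/-. With each library left out in turn 5 to 11 genes had an unadjusted p under 0.05.

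Leukocyte markers had a median of 0.35 over 15 genes tested. Of these, 3 had an unadjusted p under 0.05, all higher (3.67% of all genes). The median was 0.04 without WT replicate 3 and 0.59 without WT replicate 2, and the count was 0 without Ctcf+/- replicate 2 and 5 without WT replicate 2. Their summed level was 57.0 to 102.9 CPM in WT and 81.1 to 130.5 CPM in Ctcf+/- libraries. Csf1r, the growth factor receptor of macrophages, was at 3.5, 4.16 and 2.83 CPM in WT and 6.41, 7.14 and 3.95 CPM in Ctcf+/-. The part of leukocyte RNA in the interferon values was not tested. Among markers of other cells in muscle, medians were -0.06 for 11 endothelial genes and -0.11 for 9 of smooth muscle and pericytes. They were -0.15 for 10 of Schwann cells, -0.06 for 10 of tendon cells and -0.04 for 6 of erythroid cells. Of these 46 genes 1 had an unadjusted p under 0.05, a lower tendon gene (6.45% of all genes).

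**Figure D5:**
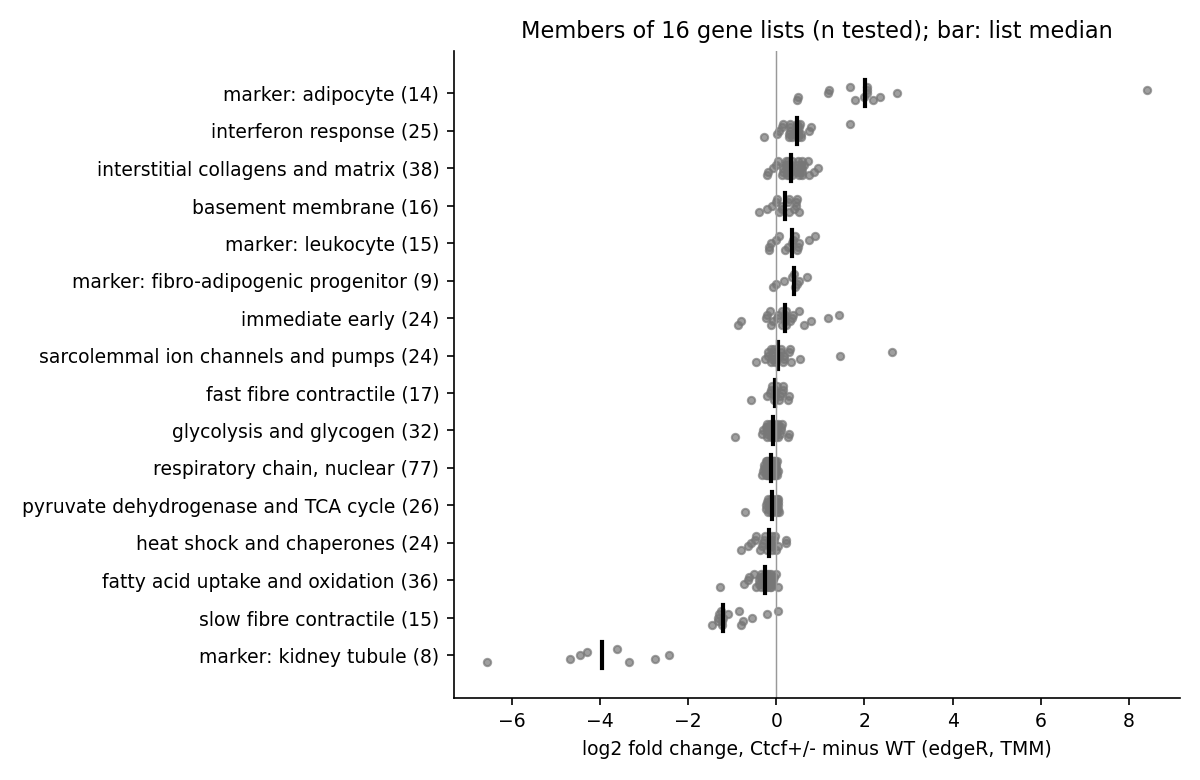
Log2 fold change (Ctcf+/- minus WT) of every tested member of 16 gene lists, with the number tested and a bar at the list median. Adipocyte markers lie to the right (median 2.02) and slow-fibre genes (-1.21) and kidney tubule markers (-3.94) to the left, and the medians of the other 13 lists lie between -0.25 and 0.47; the fitted value of Ucp1, at the far right, depends on how its 2 WT counts are smoothed.

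Heat shock proteins and chaperones had a median of -0.16 over 24, with 3 at an unadjusted p under 0.05, all lower (2.78% of all genes). Hsp90ab1, a constitutive HSP90, was at 1360, 1425 and 1402 CPM in WT and 1165, 1143 and 1076 CPM in Ctcf+/-. Without WT replicate 3 there were 10 lower and the median was -0.30, and without WT replicate 2 or Ctcf+/- replicate 3 there were 0 lower. Immediate early genes had a median of 0.20 over 24, which was -0.03 without Ctcf+/- replicate 1 and 0.03 without WT replicate 3. Nr4a2, an orphan nuclear receptor, was called by DESeq2 and not by edgeR, at 0.854, 2.01 and 0.964 CPM against 3.57, 3.28 and 3.45 CPM. Junb was at 22.8 CPM in Ctcf+/- replicate 1 and between 7.34 and 11 CPM in the other 5 libraries.

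The remaining muscle lists had medians from -0.10 to 0.17. Excitation and calcium handling genes had a median of 0.00 over 25, sarcomere and Z disc genes -0.07 over 26, atrophy, autophagy and glucocorticoid response genes 0.00 over 30, developmental myosins and denervation genes -0.10 over 17, myogenic factors 0.13 over 21 and circadian clock genes 0.17 over 19. In these 6 lists 10 of 138 genes had an unadjusted p under 0.05, or 7.25%, close to the 6.45% of all genes. Camk2b, a calcium-dependent kinase of muscle, was at 156.4, 157.1 and 180.8 CPM in WT and 129.4, 131.9 and 137.8 CPM in Ctcf+/-. Actc1, cardiac alpha-actin, was at 1007, 1921 and 1580 CPM against 1603, 3812 and 4025 CPM.

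Whether the muscle effect differed from that in the other 4 tissues was tested over all 30 libraries. Of 24262 genes 122 differed (0.503%), 43 with a more positive (0.177%) and 79 with a more negative (0.326%) effect in muscle. The tissues of a mouse were treated as independent in that fit. Carmil2 had the smallest p. Its log2 fold change was 5.34 in kidney, 5.33 in liver and 1.53 in brain, each called, and 0.81 in spleen, not called. The muscle effect exceeded the mean of these 4 by 4.39 ± 0.34 (SE, edgeR adjusted p = 6.58e-08). Kcnk3 was 1.08 in kidney, 0.15 in brain, 0.13 in liver and -0.30 in spleen, none of them called, and the muscle effect exceeded their mean by 2.38 ± 0.44 (edgeR adjusted p = 0.00696). Cd151 lay between -0.11 and 0.14 in the other 4, and the muscle effect was below their mean by -0.76 ± 0.12 (edgeR adjusted p = 0.00322). For 5830444B04Rik the difference, 0.49 ± 0.71, did not pass (edgeR adjusted p = 1.0). Its log2 fold change was -5.94 in kidney, -3.99 in liver and -3.23 in spleen, each called, and -0.33 in brain, not called. Cdo1, a cysteine dioxygenase that leads to taurine, was at 4.68, 4.77 and 3.58 CPM in WT muscle and 17.4, 11 and 18.2 CPM in Ctcf+/- muscle, and between -0.15 and -0.01 (log2) in the other tissues. Cdo1 is also made by adipocytes, and its muscle fold alone was not called (edgeR adjusted p = 0.0768). The log2 fold change of Ctcf was -0.62 in brain, -0.70 in kidney, -0.64 in liver and -0.63 in spleen, called in spleen alone. The muscle value was above the mean of these 4 by 0.09 ± 0.16 (edgeR adjusted p = 1.0).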

How the data were processed

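Total RNA was extracted with TRIzol and treated to remove DNA, with an RNA integrity number over 7, per the labels' protocols. The authors deposited raw fragment counts per gene, made with featureCounts 1.5.0-p3 over exons of Ensembl GRCm38 release 86 without regard to strand, on alignments held by IRFinder, per the file headers; the submitters' processing notes also name STAR, FastQC and DESeq2. The recorded command sets no option to count fragments shared by overlapping genes or mapped to several places, which the program then leaves out, so overlapping genes and near-identical families are uncertain. Exon length in the same table (unit: bases) served only to scale levels per kb. Counts were fitted in R 4.3.3 with edgeR 4.0.16 (filterByExpr, TMM, quasi-likelihood test, Benjamini-Hochberg adjustment over 16064 genes), which was tested on simulated data; a call is an adjusted p under 0.05. DESeq2 1.42.0 and voom of limma 3.58.1 were alternatives, as were other scalings, filters, leaving out each library, a fit of all 30 libraries and a block for the replicate number. Symbols matched 48349 of 48709 gene identifiers. Total counts of 86.1 to 103.7 M set the precision, and the limit of 3 counts covers counting error only.

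Named were Ctcf, every called gene, up to 12 per direction with the largest fold among DESeq2 calls with a mean of at least 1 CPM and groups that did not overlap (unnamed gene models and pseudogenes left out), the 10 strongest loadings per side, up to 4 members per list by p and 2 by level per kb, and the 3 smallest p against other tissues; other genes were chosen after their values were seen. The comparison, its members and the 37 gene lists were chosen with earlier results of these data known. Principal components used log2 CPM with a prior count of 2. A motif search in the promoters of the called genes was also planned; it and a few genes that the rule named are not reported here.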

Additional observations from a re-analysis of the deposited data

Results flagged for a closer look

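For 14 of the genes named above the effect of genotype in muscle differed from the mean effect in the other 4 tissues (edgeR quasi-likelihood test over 30 libraries, adjusted p under 0.05, values in log2 units as muscle minus the mean of the others). The values were 4.39 for Carmil2, 2.38 for Kcnk3 and -0.76 for Cd151, each measured in 3 of 3 Ctcf+/- libraries on the same side of all WT libraries. Among genes that adipocytes express they were 2.95 for Prkar2b, 2.68 for Arxes2, 1.82 for Scd1, 1.93 for Cdo1 and 3.36 for Cyp2e1. Kidney transcripts gave -6.73 for Aadat, -5.99 for Lrp2 and -5.88 for Keg1, and in muscle these were highest in WT replicate 2. The mean of the other tissues was moved by spleen for these genes, where the log2 fold change was 5.61 for Aadat, 6.60 for Lrp2 and 4.21 for Keg1, while the values in brain, kidney and liver lay between -0.69 and 1.01. Cyp2e1 was also lower in Ctcf+/- spleen, at -4.37, against 0.29 in brain, -0.71 in kidney and -0.44 in liver. Ass1, a urea cycle enzyme that averaged 3119 CPM in liver, gave -1.72. The last were 5.53 for Rpph1, the RNA of ribonuclease P, and 1.52 for Nr4a2. Liver and brain lowered the mean of the other tissues for Rpph1. Its log2 fold change was -2.37 in liver and -1.22 in brain, neither called, against 0.14 in kidney and 0.02 in spleen. Rpph1 was at 0.0192, 0.0581 and 0.0219 CPM in WT and 0.355, 1.76 and 0.470 CPM in Ctcf+/-.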

How the results depend on the processing

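The count of 4 called genes was 159 with DESeq2, 66 with a filter of 1 count, 229 in the fit of all 30 libraries, 118 with the replicate number as a block and 2 with limma-voom; leaving out single libraries gave 1 to 2. The 4 genes themselves were all among the calls of DESeq2, the looser filter, the block and the 30-library fit. Blocked and DESeq2 calls shared 77 genes. The block called 11 of 15 slow-fibre genes lower, 10 of 14 adipocyte markers higher and 2 of 38 matrix genes higher, and the 30-library fit called 1, 3 and 0 of them, where edgeR on the 6 libraries called none. Same-numbered WT and Ctcf+/- libraries had correlations of 0.0829, 0.183 and 0.271 between their deviations from the group means. Differently numbered ones ran from -0.284 to 0.119, the highest between WT replicate 1 and Ctcf+/- replicate 2. With 3 libraries per genotype these values cannot decide whether the numbers pair the libraries. Cd151 lost its call in edgeR with total counts (adjusted p 0.0848) and with limma-voom (0.0506), over a range of 7.36e-12 to 0.360, and 5830444B04Rik with limma-voom (0.0591), over a range of 3.90e-09 to 0.321. The count of genes that differed from the other tissues was 27 of 11767 when 10 counts in every library were required, against 122 of 24262. It was 73 to 192 without single libraries, with 81 without WT replicate 2, 192 without WT replicate 3 and 73 without Ctcf+/- replicate 1; the cause was not tested. The genotype's share of the first component, 87.0%, was 94.8% over all genes tested, 92.1% over the 2000 most variable, 91.8% without genes 100 times higher elsewhere and 85.9% to 93.3% without single libraries. The share difference of Myh1 turned from -1.0 to 0.16 percentage points without Ctcf+/- replicate 3 (leave-one-out range -1.74 to 0.16). Log2 fold changes that turned sign were 0.24 for Apoa1 without WT replicate 1 (range without single libraries -4.37 to 0.24), -0.03 and -0.07 for Stat2 without WT replicates 1 and 3 (range -0.07 to 0.14), and -0.16, -0.07 and -0.14 for Mybpc1 without WT replicate 3, Ctcf+/- replicate 1 and Ctcf+/- replicate 2 (range -0.16 to 0.33); the cause was not tested. Depth limits the scarce transcripts: 55 of the 159 DESeq2 calls had a mean under 1 CPM, and 3 counts correspond to 0.0288 to 0.0345 CPM.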

Other observations

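Positional genes of the HoxC cluster lay in opposite directions; apart from Hoxc11, they were chosen after their values were seen. Hoxc11 was at 7.99, 6.87 and 9.36 CPM in WT and 4.18, 3.71 and 5.15 CPM in Ctcf+/- libraries. Hoxc6 was at 7.47, 7.63 and 7.29 CPM against 12.2, 10.2 and 11.7 CPM, and Hoxc5 at 2.26, 2.37 and 2.14 CPM against 3.02, 3.06 and 3.63 CPM. Hoxc10, which lies next to Hoxc11, overlapped between genotypes, at 85.0, 92.8 and 107.3 CPM against 88.2, 85.6 and 114.3 CPM. Of 30 Hox genes tested none was called by edgeR, 2 (Hoxc11 and Hoxc6) were called by DESeq2 (0.990% of all genes), and 6 had an unadjusted p under 0.05 (6.45% of all genes), 4 higher and 2 lower.

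Some scarce transcripts known from other organs differed between libraries. Scgb1a1, a secretory protein of airway club cells, was at 10.5 CPM in WT replicate 1, 0.223 and 0.427 CPM in the other WT libraries and at most 0.0460 CPM in Ctcf+/- libraries. It had the most negative loading on the first component once genes 100 times higher in another tissue were left out. Sp9, a transcription factor known from brain, was at 0.0384, 0.0969 and 0.197 CPM in WT and 1.41, 0.518 and 1.23 CPM in Ctcf+/- libraries. Marker lists of brain cells (3 of 9 genes tested, median log2 fold change -0.30), cartilage and bone (1 of 6, 1.38), keratinocytes (1 of 6, 0.14) and pancreatic acinar cells (1 of 9, -0.63) held too few tested genes to describe.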
